A study of Mus musculus with 30 samples.

Results

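Gene expression in the occipital part of the newborn mouse brain was compared between Tbr1 null animals and wild-type animals at postnatal day 0.5. The comparison used 8 of the study's 30 microarrays, 4 from Tbr1 null tissue (KO) and 4 from wild-type tissue (WT). The animals were of the CD1 strain, and the nulls came from crosses between heterozygous parents. The labels name no Cre line or other restriction of the loss to a cell type. The other arrays held frontal and parietal tissue of the same age and genotypes, with 4 arrays in each group, and E14.5 neocortex, which was not used here. The labels do not say whether arrays of a group came from separate animals, whether animals were pooled, or whether arrays of different regions share an animal, so p-values measure the spread between these arrays, which may be partly technical.

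The P0.5 table listed 35557 probe sets, of which 21789 named exactly 1 gene. Where a gene had several, the brightest on average across the 24 P0.5 arrays stood for it, which left 19938 genes, and no gene was removed for low signal. Values are log2 probe set signals. A difference of 1 on this scale is a 2-fold difference in signal, and levels of different genes are not comparable because each probe set has its own response. A gene was called when its adjusted p in the limma fit of all 24 P0.5 arrays was under 0.05.

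Young glutamatergic neurons switch on Tbr1, a transcription factor of the T-box family, soon after they leave the cell cycle. It is known as a factor of early-born neurons, among them the corticothalamic neurons of layer 6, the subplate and Cajal-Retzius cells, and as a repressor of Fezf2, a factor of layer 5 neurons that project to the brainstem and spinal cord. Reln, the secreted protein that guides migrating neurons to their layer, is a known target in Cajal-Retzius cells.

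Cortical markers were present in all 8 arrays. The mean level of the 5 measured cortex identity genes lay between 9.59 and 9.73 in every array, although Neurod6 among them was itself called lower. Markers of neighbouring tissue varied between arrays. The mean of 9 meningeal and fibroblast genes was 8.40 in KO array 1 and 7.49 to 7.62 in the other KO arrays, and in WT arrays 1 to 4 it was 9.09, 7.75, 7.06 and 8.74. Thalamic genes averaged 8.65 in WT array 1 against 7.90 to 7.97 in the other WT arrays. WT arrays 2 and 3 resembled each other most (correlation over genes 0.996). Y-linked genes were low in KO array 3 alone, with a mean of 5.88 against 9.02 to 9.44 in the other arrays. KO arrays 2 and 4 had high Y-linked signal (9.18 and 9.02) together with Xist, the X inactivation transcript, at 7.75 and 8.77, between the WT arrays (5.73 to 6.24) and KO array 3 (12.0). These arrays are therefore left out in turn below. In bulk tissue, fewer cells of a type and less RNA per cell cannot be told apart.

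In occipital tissue 267 of 19938 genes were called (1.34%), 152 higher in KO (0.762%) and 115 lower (0.577%). The median difference over all genes was 0.01. Most differences were modest: the median fold over the called genes was 1.43, 89 genes reached 1.5-fold and 11 reached 2-fold. In 237 of the 267 the KO and WT values did not overlap (1.19% of genes tested), 139 higher and 98 lower in KO. Called or not, 1248 genes had no overlap (6.26%), 749 with KO higher (3.76%) and 499 with KO lower (2.5%). Without WT arrays 2 and 3 together, 44 genes were called, 42 of them among the 267, and all 267 kept their sign. Leaving out KO array 3, WT array 2 or WT array 3 alone gave 155, 122 and 127 calls, and 100 of the 267 were called whichever of the 8 arrays was left out. With the mean meningeal level as a covariate all 267 were still called, among 530.

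**Figure D1:**
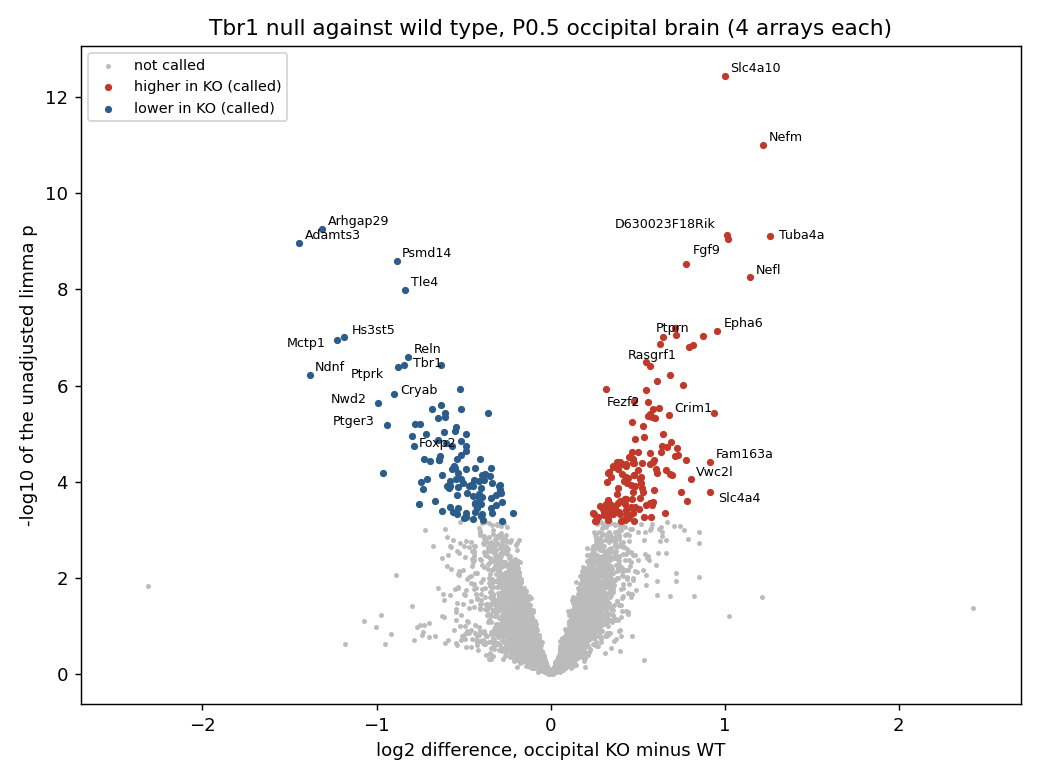
Each point is 1 of 19938 genes, with the log2 difference between KO and WT occipital tissue on the horizontal axis and the unadjusted limma p, as its negative log10, on the vertical axis. Called genes are coloured, and Slc4a10 and Nefm have the smallest p among those that rose. Xist (2.42) and Ttr (-2.31) lie farthest out and were not called.

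Tbr1 itself had signals of 9.25, 9.33, 9.42 and 9.07 in KO arrays 1 to 4 and of 9.73, 10.21, 10.10 and 10.41 in WT arrays 1 to 4. The groups did not overlap. The difference was -0.84 ± 0.12 (SE; adjusted p = 2.93e-04), a 1.79-fold reduction. The labels do not say which exons the allele lacks, so the signal that remained in KO arrays was not read further.

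The genes beside Tbr1 on chromosome 2 also differed. Psmd14, a deubiquitinating subunit of the proteasome and the neighbour on one side, measured 10.54, 10.18, 10.31 and 10.25 in KO and 11.11, 11.31, 11.34 and 11.07 in WT. Slc4a10, a sodium-coupled bicarbonate transporter of neurons and the neighbour on the other side, measured 10.71, 10.77, 10.72 and 10.65 in KO and 9.56, 9.84, 9.65 and 9.80 in WT. The groups were fully separated in opposite directions: Psmd14 fell by 0.88 (SE 0.10; adjusted p = 6.32e-06) and Slc4a10 rose by 1.00 (SE 0.07; adjusted p = 7.23e-09), and both were called in frontal and parietal tissue with the same signs. Of the 12 nearest protein-coding genes, 6 on each side, 1 more was called, Gcg at 0.61 (adjusted p = 0.0106). Gcg was singled out after its value was seen and lost its call without WT array 2 or WT array 3. Gene order is that of the protein-coding genes in the reference annotation.

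Among corticothalamic and layer 6 genes, 3 of 12 fell and none rose, with a median difference of -0.35. The 3 were Tbr1, Tle4 and Foxp2, so 2 of 11 fell apart from the deleted gene. Tle4, a transcriptional corepressor of corticothalamic neurons, was 8.81, 8.88, 8.78 and 8.87 in KO and 9.64, 9.72, 9.75 and 9.58 in WT. The arrays within each genotype were nearly equal and the groups far apart, and the fall was 0.83 (difference -0.83, SE 0.10, adjusted p = 1.86e-05). Foxp2, a forkhead factor of layer 6 and of thalamus, was 8.14, 7.87, 7.45 and 7.71 in KO and 8.54, 8.71, 8.97 and 8.15 in WT. Its highest KO array was just under its lowest WT array, with a difference of -0.80 (adjusted p = 0.00336). Without WT arrays 2 and 3 the difference was -0.55 (adjusted p = 0.26). Foxp2 also stands in the thalamic list, whose other 7 genes were not called. Among the uncalled layer 6 genes, Sox5 differed by -0.39, Grik3 by -0.41 and Hs3st4 by -0.35, each without overlap between groups. Over all genes, 2.5% had KO lower without overlap. Of the 12 differences in the list, 10 were negative and 2 positive. The count of called falls was 5 without WT array 1.

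Subplate and layer 6b genes gave 0 calls of 12 in limma (3 at an unadjusted p under 0.05), with a median of -0.11. Nxph4 differed by -0.14, Ccn2 by -0.09 and Cplx3 by -0.16. In frontal tissue, where 2.81% of genes fell, 6 of the same 12 did. The difference between the 2 regions was itself called for 3 of them: Pappa2 (1.05), Nxph4 (0.69) and Tmem163 (0.65), where a positive value means a higher KO minus WT difference in occipital tissue. Tmem163 lost that call without WT array 2 or WT array 3, and Nxph4 without any array other than KO array 1 or WT array 1. Pappa2 kept that call whichever occipital array was left out, but not once Y-linked signal entered the model as a covariate.

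Of 13 layer 5 subcerebral genes 4 rose and 1 fell, with a median of 0.25. Over all genes 0.762% rose and 0.577% fell. Differences in the list were positive for 9 genes and negative for 4. The negative ones include Cntn6, which was not called although its KO values all lay below its WT values. Fezf2, the zinc-finger factor that specifies these neurons, was 10.16, 10.04, 10.26 and 10.17 in KO and 9.78, 9.64, 9.52 and 9.33 in WT. Every KO array exceeded every WT array, and the rise was 0.59 ± 0.10 (SE; adjusted p = 0.00144). Crim1, a transmembrane protein of corticospinal neurons, rose by 0.68 (adjusted p = 0.00172), with KO values of 10.57, 10.34, 10.61 and 10.26 and WT values of 10.13, 9.53, 9.53 and 9.88. Crym, a thyroid hormone binding protein, rose by 0.64 (adjusted p = 0.00321). S100a10, a calcium-binding family member that rose by 0.69, and Tcerg1l, which fell by 0.40, were named after their values were seen. Tcerg1l kept its call without WT array 1 or WT array 4 but not without any of the other 6 arrays. Bcl11b, another regulator of these neurons, differed by 0.31 (adjusted p = 0.12). Without WT arrays 2 and 3 only Fezf2 of the named 3 was called (0.60).

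**Figure D2:**
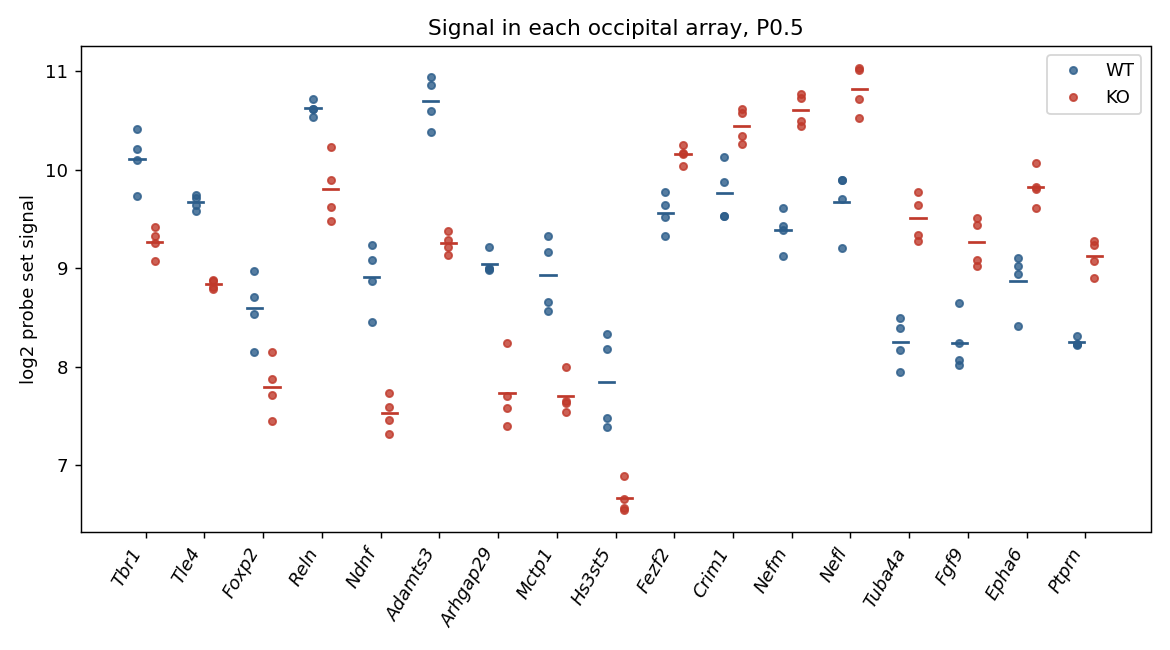
Each point is the log2 probe set signal of 1 occipital array, with WT in blue and KO in red, and short lines mark the means of 4 arrays. The 17 genes shown are called genes, most of them named partly because their groups do not overlap. Their KO and WT points do not overlap, with 9 lower and 8 higher in KO. Over all genes 6.26% had no overlap.

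Of 10 Cajal-Retzius genes, 2 fell and none rose. Reln was 10.23, 9.48, 9.90 and 9.62 in KO and 10.62, 10.54, 10.62 and 10.72 in WT. The WT arrays were tight and every KO array lay below them, with a difference of -0.82 ± 0.12 (SE; adjusted p = 2.26e-04), which was -0.87 without WT arrays 2 and 3. Ndnf, a secreted neurotrophic protein made by layer 1 neurons, was 7.73, 7.32, 7.59 and 7.46 in KO and 8.45, 9.24, 9.08 and 8.87 in WT. It fell by 1.38 (difference -1.38, SE 0.21, adjusted p = 4.17e-04), and by 1.13 without WT arrays 2 and 3 (adjusted p = 0.059). Other genes of these cells were not called, among them Trp73 (-0.22), Calb2 (-0.45) and Lhx5 (-0.21). Differences over the 10 genes were negative for 7 and positive for 3.

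In the list of the reelin pathway and its proteases, 2 of 10 fell, the ligand and a protease. Adamts3, a secreted metalloprotease that cleaves reelin, was 9.28, 9.37, 9.22 and 9.14 in KO and 10.39, 10.94, 10.86 and 10.60 in WT. It had the most negative difference of the called genes at -1.44 ± 0.15 (SE; adjusted p = 3.06e-06), a 2.72-fold reduction. The gene has 16 probe sets on the array, and all 16 were lower in KO, by -0.91 to -1.44. The reelin receptors Vldlr (-0.01) and Lrp8 (-0.16) and the adaptor Dab1 (-0.04) were not called.

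Upper layer, area and neuronal factor lists held few calls. Mef2c, an activity-regulated factor, fell by 0.54 as 1 of 12 upper layer genes, with overlapping groups, and lost its call without KO array 1, KO array 3, WT array 2 or WT array 3. The layer genes Cux1 (0.01), Cux2 (-0.06) and Lhx2 (0.08) were not called. Nr2f1, a nuclear receptor of caudal cortex, fell by 0.41 as 1 of 8 caudal genes, with no overlap, and was called in 2 of the 8 fits that left out an array, those without KO array 3 and without WT array 1. Of 11 rostral genes, Epha7 rose by 0.48. Neurod6, a bHLH factor of glutamatergic neurons, fell by 0.43 (adjusted p = 0.0284) and kept its call without KO array 1 or WT array 4 but not without any of the other 6.

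**Figure D3:**
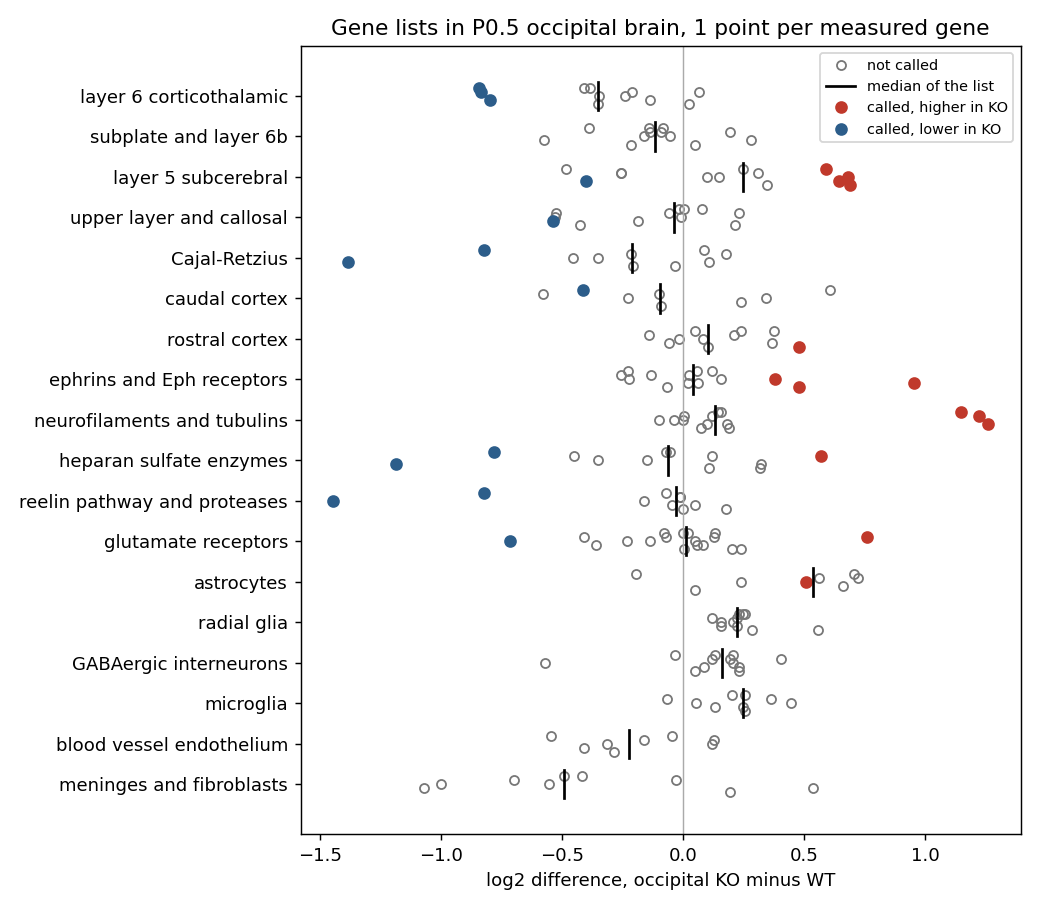
Each point is a measured gene of the list named at the left, placed by its log2 difference between KO and WT occipital tissue. Filled points were called, and the black line is the median of the list, from -0.49 for meningeal genes to 0.54 for astrocyte genes.

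The 3 largest rises among called genes were in cytoskeletal genes of neurons. Of 14 neurofilament and tubulin genes 3 rose and none fell, all 3 also without WT arrays 2 and 3. Nefm, the medium neurofilament subunit, was 10.73, 10.45, 10.77 and 10.49 in KO and 9.39, 9.43, 9.12 and 9.61 in WT. Nefl, the light subunit, was 11.03, 10.53, 11.01 and 10.72 in KO and 9.90, 9.70, 9.21 and 9.90 in WT. Tuba4a, an alpha tubulin, was 9.64, 9.28, 9.77 and 9.34 in KO and 8.39, 8.17, 7.94 and 8.50 in WT. In these 3 genes each KO array exceeded each WT array by a wide margin. The differences were 1.22 (SE 0.10; adjusted p = 9.90e-08) for Nefm, 1.15 (SE 0.13; adjusted p = 1.12e-05) for Nefl and 1.26 (SE 0.13; adjusted p = 2.98e-06) for Tuba4a. Other members stayed close to 0, with Nefh at 0.00, Ina at 0.10, Tuba1a at -0.04 and Tubb3 at -0.10, and the list median was 0.13.

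Other large rises were those of Fgf9, D630023F18Rik, Fam163a, Slc4a4, Ptprn, Rasgrf1 and Vwc2l. Fgf9, a secreted growth factor, was 9.44, 9.03, 9.51 and 9.09 in KO and 8.24, 8.07, 8.02 and 8.64 in WT, a rise of 1.02 (adjusted p = 2.98e-06). Ptprn, a transmembrane protein of dense-core vesicles, was 9.24, 9.07, 9.28 and 8.90 in KO and 8.31, 8.23, 8.22 and 8.23 in WT, a rise of 0.88 (adjusted p = 1.16e-04), and the other 19 genes of the dense-core vesicle and neuropeptide list were not called. Rasgrf1, a Ras exchange factor, rose by 0.82, and the uncharacterised gene D630023F18Rik rose by 1.01. Vwc2l, a secreted protein with a von Willebrand domain, rose by 0.80 (adjusted p = 0.0123). Fam163a rose by 0.92, with its lowest KO array (6.58) barely above its highest WT array (6.56), and lost its call without WT array 3. Slc4a4, a bicarbonate transporter of astrocytes, rose by 0.91 and lost its call without KO array 1, KO array 3, WT array 2 or WT array 3.

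Of 14 ephrin and Eph receptor genes, 3 rose, each an EphA receptor, a class of axon guidance receptors. Epha6 was 10.07, 9.81, 9.82 and 9.61 in KO and 9.02, 8.94, 8.42 and 9.10 in WT. The lowest KO array was above the highest WT array, and the rise was 0.96 ± 0.13 (SE; adjusted p = 1.11e-04). Epha7 (0.48, adjusted p = 0.00789) and Epha5 (0.38, adjusted p = 0.00763) rose less, and without WT arrays 2 and 3 Epha5 was not called (adjusted p = 0.18). Among 25 genes of the Slit, Robo, netrin, semaphorin and plexin list, 2 fell and 1 rose. Sema3e (-0.55) and Sema3a (-0.48), secreted guidance cues, had overlapping groups. Sema3e lost its call without WT array 2, and Sema3a without KO array 2, KO array 3, WT array 2 or WT array 3. Ntng1, a membrane-anchored netrin relative, rose by 0.37 and was called in 2 of the 8 fits that left out an array, those without WT array 1 and without WT array 4; its other probe set differed by 0.98.

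The heparan sulfate and adhesion genes named here fell, apart from Hs6st3. Hs3st5, which adds a sulfate to heparan chains, was 6.54, 6.88, 6.57 and 6.65 in KO and 7.47, 8.18, 8.33 and 7.39 in WT, a fall of 1.18 (difference -1.18, adjusted p = 1.16e-04) that was -0.77 without WT arrays 2 and 3. Sulf1, which removes sulfates from heparan, fell by 0.78 and Hs6st3, another sulfotransferase, rose by 0.57, so that 2 of 12 heparan sulfate enzymes fell and 1 rose. Hs6st3 lost its call without WT array 3. Cdh6, a cadherin, was 8.98, 9.07, 8.98 and 9.11 in KO and 9.13, 10.12, 10.25 and 9.56 in WT. WT array 1 nearly met the KO arrays, the fall of 0.73 was 1 of 21 cadherin genes, and the call was lost without KO array 1, KO array 3, WT array 2 or WT array 3. Contactins gave 0 calls of 9 in limma (3 at an unadjusted p under 0.05). Ptprk, a receptor phosphatase that binds between cells, fell by 0.88.

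Other large falls lay in Arhgap29, Mctp1, Nwd2, Ptger3 and Cryab. Arhgap29 was 8.24, 7.70, 7.58 and 7.40 in KO and 8.98, 8.99, 9.21 and 8.998 in WT, a difference of -1.31 ± 0.14 (SE; adjusted p = 2.98e-06). Mctp1, a calcium-binding membrane protein, was 7.999, 7.53, 7.63 and 7.65 in KO and 8.57, 9.17, 9.33 and 8.65 in WT, a difference of -1.23 (adjusted p = 1.22e-04). Neither gene had overlapping groups, and each stayed called without WT arrays 2 and 3, at -1.26 and -0.91. Nwd2 fell by 0.99, Ptger3, a prostaglandin E receptor, by 0.94 and Cryab, a small heat shock protein, by 0.90, and these 3 were not called without WT arrays 2 and 3.

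Receptor and channel lists held isolated calls. Grin3a, an NMDA receptor subunit, rose by 0.76 (adjusted p = 6.16e-04) and Grm8, a metabotropic glutamate receptor, fell by 0.72 (adjusted p = 0.00321), as 2 of 18 glutamate receptor genes. Gabrg3 rose by 0.60 as 1 of 9 GABA-A receptor genes, and its call was lost without KO array 2, KO array 3 or WT array 3. Of 25 channel genes, Kcnip1 rose by 0.59 and Kcna1 by 0.33. Kcna1 kept its call without KO array 3 or WT array 4 but not without any of the other 6. Of 14 Wnt genes, the receptor Fzd1 rose by 0.46 and the secreted inhibitor Sfrp1 by 0.43. Fzd1 was called without KO array 2 and without KO array 4 but in no other fit that left out an array, and Sfrp1 in none, and their adjusted p were 0.086 and 0.095 once Y-linked signal entered the model. Drd1, a dopamine receptor in the striatal list, fell by 0.61, and Nr3c2, a steroid receptor in the hippocampal list, rose by 0.63. The hippocampal list mean was highest in KO array 1, at 8.10, and its part in the Nr3c2 value was not tested.

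Glial and progenitor lists were mostly above 0 without passing the test. Of 8 astrocyte genes 7 were higher in KO, as were 10796 of all 19938 genes, and 1 was called, with a median of 0.54. Slc1a2, the main glutamate transporter of astrocytes, was 9.42, 9.41, 9.13 and 9.07 in KO and 8.73, 8.79, 8.61 and 8.86 in WT. The groups were separate and the rise was 0.51 (adjusted p = 0.0322), a call lost without KO array 1, KO array 2, KO array 3, WT array 1, WT array 2 or WT array 3. Aqp4 (0.71, adjusted p = 0.056), Gfap (0.66, adjusted p = 0.12) and Aldoc (0.72, adjusted p = 0.21) did not pass, although their groups did not overlap. Cnp, a myelin-associated enzyme, rose by 0.45 as 1 of 7 oligodendrocyte lineage genes. In limma 0 genes were called in the radial glia (median 0.22), intermediate progenitor (0.13), interneuron (0.16), microglia (0.25), endothelial (-0.22) and dividing cell (-0.05) lists. At an unadjusted p under 0.05 these lists held 2, 2, 5, 2, 0 and 1 genes. Meningeal and retinoid genes also gave 0, called or unadjusted.

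Most occipital calls had a partner elsewhere in the cortex. In frontal tissue 1499 genes were called (7.52%), 938 higher (4.7%) and 561 lower (2.81%), and in parietal tissue 361 (1.81%), 212 higher (1.06%) and 149 lower (0.747%). Of the 267 occipital genes 149 were called with the same sign in frontal tissue, which is 55.8% of the occipital and 9.94% of the frontal calls, and 121 in parietal tissue, 45.3% and 33.5%. None had the opposite sign among these shared calls, 103 were called in all 3 regions, and 100 in occipital tissue alone, which does not show that those genes differed between regions. The comparisons use separate arrays but 1 estimate of the spread, and the model treats arrays of different regions as independent. Same-numbered WT occipital and parietal arrays deviated together in 4 of 4 cases (correlations 0.12 to 0.28). In KO the same correlations were -0.32 to 0.01. Of the 4 WT occipital arrays, 2 correlated best with the parietal array of their own number.

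The difference between regions was tested directly. The KO minus WT difference differed between occipital and frontal tissue for 83 genes (0.416%), 36 with a higher (0.181%) and 47 with a lower (0.236%) value in occipital tissue, and 68 of the 83 were called in frontal but not in occipital tissue. It differed between occipital and parietal tissue for 2 genes (0.01%), Ndnf and Egfem1. Y-linked genes set a limit here: Eif2s3y differed by -4.98 between genotypes in frontal tissue and by -1.18 in occipital tissue. Once Y-linked signal entered the model as a covariate, the contrast with frontal tissue was called for 12 genes over all genes tested.

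Ndnf and Nwd2 were called lower in occipital tissue and in neither other region. Mean Ndnf in KO and WT was 7.52 and 8.91 in occipital tissue, 8.35 and 8.04 in frontal and 8.64 and 8.17 in parietal. Its difference lay 1.69 below the frontal one (-1.69) and 1.85 below the parietal one (-1.85, adjusted p = 0.0143), and the parietal contrast lost its call without KO array 2, WT array 2 or WT array 3. Egfem1 lost its parietal call (-1.20, adjusted p = 0.0143) without WT array 2, and without KO parietal array 2 both adjusted p were 0.0547. Nwd2 differed by -0.99 in occipital tissue, by 0.02 in frontal and by -0.05 in parietal, and the occipital minus frontal contrast was -1.01 (adjusted p = 0.0485), a call lost without KO array 1, KO array 3, KO array 4, WT array 2 or WT array 3. Its contrast with parietal tissue was -0.94 and was not called.

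For Bhlhe40, Bcl6, Vwc2l, Egfem1 and Cntn6 the mean occipital and frontal levels stood farther apart in WT than in KO. The reverse held for Il1rapl2, Sema3a, Kitl and Nwd2, whose mean levels in these regions stood farther apart in KO. For Kitl the KO occipital arrays were split, at 9.28, 7.79, 8.88 and 7.78, against 7.49 to 7.69 in KO frontal arrays. Bhlhe40, a bHLH repressor, was 1.26 lower in WT occipital than in WT frontal tissue (-1.26) and 0.13 higher in KO, and the contrast was 1.39 (adjusted p = 2.70e-04). Bcl6, a zinc-finger repressor, differed by -1.39 between the same regions in WT and by -0.03 in KO, with a contrast of 1.36. For Vwc2l the regional difference was 1.31 in WT and -0.10 in KO, and for Egfem1 it was 2.08 and 0.56. Cntn6, a contactin, was 1.096 higher in occipital than frontal tissue in WT and differed by -0.56 in KO. Kitl (1.49), Zfp385b (1.09) and Pappa2 (1.05) had contrasts above 0, and Il1rapl2 (-1.70), Klhl4 (-1.61) and Sema3a (-0.81) below 0. Kitl lost its call without KO array 1, KO array 3, WT array 2 or WT array 3, and Klhl4 without these or KO array 2. With Y-linked signal in the model, the frontal contrasts of Bhlhe40, Cntn6 and Egfem1 were called and those of the other genes named in this paragraph and of Ndnf and Nwd2 were not. The parietal contrasts of Ndnf (-1.84) and Egfem1 (-1.20) were called in that model (adjusted p = 0.0133 for each).

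**Figure D4:**
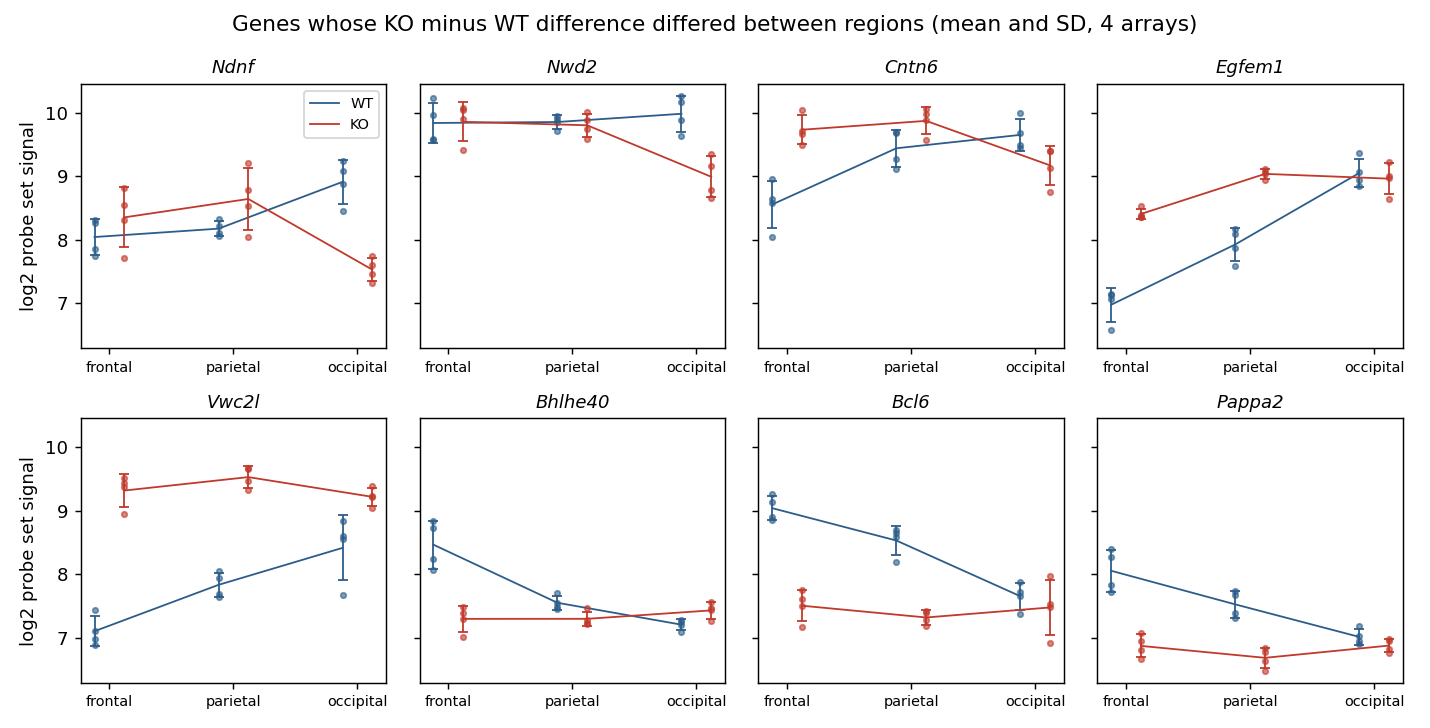
Each panel shows the log2 probe set signal of 1 gene in frontal, parietal and occipital tissue, with WT in blue and KO in red; points are arrays and bars are the mean and SD of 4 arrays. KO and WT points do not overlap in occipital tissue for Ndnf, Nwd2, Vwc2l and Cntn6. In frontal tissue they do not overlap for any gene shown except Ndnf and Nwd2.

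The array also held probe sets for 272 miRNA genes, of which 2 were called (0.735%), both lower in KO. Over all genes 1.34% were called and 0.577% were called lower, so miRNA genes did not stand out by this count. They were chosen after their values were seen. A miRNA represses transcripts that pair with its seed, bases 2 to 8, which is in capitals in the mature sequences below, from RefSeq on GRCm38.p6, shown because the seeds of the 2 genes differ.
mmu-miR-204-5p: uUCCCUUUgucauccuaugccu
mmu-miR-204-3p: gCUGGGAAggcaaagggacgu
mmu-miR-592-5p: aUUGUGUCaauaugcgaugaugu
mmu-miR-592-3p: uCAUCACGuggugacgcaacau
The arms of miR-204 lie at chr19:22750610-22750631 and chr19:22750649-22750669 on the plus strand, inside Trpm3, a cation channel gene. Those of miR-592 lie at chr6:27936711-27936733 and chr6:27936672-27936693 on the minus strand, inside Grm8.

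Mir204 was 6.54, 6.89, 6.76 and 6.80 in KO and 7.19, 7.14, 7.16 and 7.09 in WT, and Mir592 was 5.40, 5.76, 5.51 and 5.35 in KO and 6.07, 6.14, 5.96 and 5.84 in WT. Neither pair of groups overlapped. The differences were -0.40 (adjusted p = 0.0284) for Mir204 and -0.50 (adjusted p = 0.0440) for Mir592. Both host genes, transcribed from the same strand, fell as well, Trpm3 by 0.49 (adjusted p = 0.00587) and Grm8 by 0.72. Of 120 measured miRNA genes inside a measured host, 3 had a called host, the third being Mir335 (0.06) in Mest (0.40). The probe sets cannot tell a miRNA precursor from the host transcript. Mir204 lost its call without KO array 1, KO array 3, WT array 1, WT array 2 or WT array 3, and Mir592 without these or KO array 4.

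**Figure D5:**
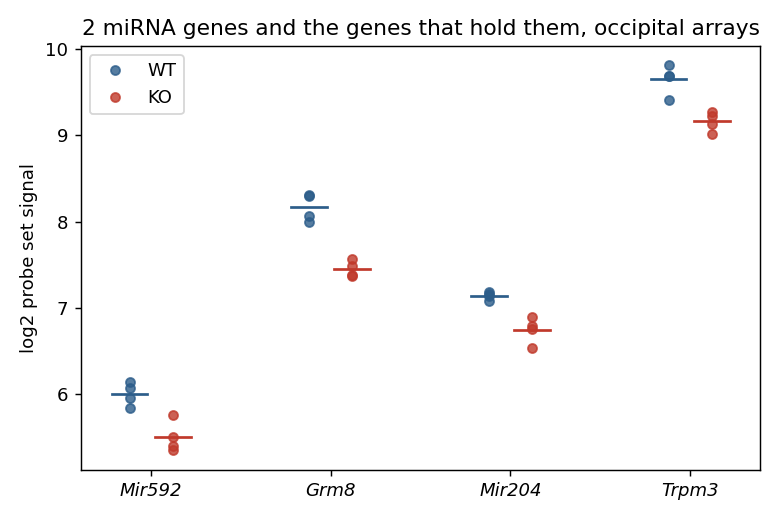
Each point is the log2 probe set signal of 1 occipital array for 2 miRNA genes and the genes that contain them, with WT in blue, KO in red and short lines at the means. KO lies below WT without overlap for all 4.

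T-box factors bind the motif AGGTGTGA, which reads TCACACCT on the opposite strand. In windows from 250 bases before to 50 after the start site, from RefSeq on GRCm38.p6, it was present on either strand for 204 of 15614 tested genes (1.31%), for 0 of 112 genes called higher and for 2 of 84 called lower (2.38%). Its core GGTGTG, or CACACC on the opposite strand, lies within the longer motif and was present for 21.2% of tested genes, 21.4% of those higher and 28.6% of those lower. The 2 called genes with the full motif were Sgk1, a kinase (-0.50), and Dctd, a deaminase (-0.29). Sgk1 lost its call without KO array 1, WT array 2 or WT array 3, and Dctd without KO array 1, KO array 3, WT array 2 or WT array 3. The stretches around the motif, in capitals, lie on the plus strand at chr10:21978434-21978533 and chr8:48098917-48099016, with the motif 192 and 129 bases before the start site. They are shown as the matches among called genes, and a match is a description of letters, not of binding.
Sgk1: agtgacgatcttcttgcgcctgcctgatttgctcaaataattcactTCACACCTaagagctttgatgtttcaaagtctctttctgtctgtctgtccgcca
Dctd: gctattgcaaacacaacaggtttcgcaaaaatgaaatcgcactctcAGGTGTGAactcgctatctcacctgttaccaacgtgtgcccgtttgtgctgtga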

How the data were processed

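The values analysed are log2 probe set signals deposited by the authors for 24 P0.5 arrays (Affymetrix Mouse Gene 1.0 ST, per the labels' protocols). Affymetrix Expression Console 1.1 and RMA are named in the submitters' processing notes. No further normalisation was applied. RMA brings arrays to a common distribution, so a change shared by most genes would not be seen. Array medians lay between 7.42 and 7.52. Precision is limited by the number of arrays, which carry no count depth. Of the 35557 probe sets, 1621 named several genes and 12147 none, and these were left out; 999 genes had several probe sets.

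One model of the 24 arrays in 6 groups was fitted with limma 3.58.1 in R 4.3.3 (lmFit and eBayes with an intensity trend), two-sided, with Benjamini-Hochberg adjustment over 19938 genes; the script was tested on simulated data. Named genes are Tbr1, the 12 largest rises and falls without overlap among called genes, up to 3 called members of each of 41 lists by smallest p, and the 5 largest called differences each way between regions. The comparison, members and lists were chosen with earlier results of these data known. Alternatives were another probe set rule, a filter on dim genes, centring, array weights, blocks, covariates and leaving out arrays. WT arrays 2 and 3 left out together, KO parietal array 2 left out and the meningeal covariate were chosen after seeing the data. The E14.5 table was not used here.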

Additional observations from a re-analysis of the deposited data

Results flagged for a closer look

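Of 134 groups of 4 occipital arrays examined for a value far from the rest, 9 had one, and chance gives about 1 in 20. Ptprn was 8.31 in WT array 1 (8.22 to 8.23 in the other WT arrays), Arhgap29 9.21 in WT array 3 (8.98 to 8.998), Neurod6 10.8 in KO array 2 (11.02 to 11.06 in the other KO arrays) and Kcna1 7.36 in WT array 4 (7.21 to 7.24). List means stood apart for thalamic genes in KO array 1 (8.15, others 7.89 to 7.92) and WT array 1 (8.65), for meningeal genes in KO array 1 (8.40), for hippocampal genes in KO array 1 (8.10) and for Y-linked genes in KO array 3 (5.88). Xist in KO arrays 1 to 4 was 5.43, 7.75, 12.0 and 8.77, and 5.73 to 6.24 in WT. KO arrays 2 and 4 thus carried Xist above the WT range beside a Y-linked mean of 9.18 and 9.02.

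The KO minus WT difference differed from that in frontal tissue by the limma contrast for Vwc2l (-1.41), Ndnf (-1.69), Nwd2 (-1.01), Sema3a (-0.81), Il1rapl2 (-1.70), Cntn6 (-1.66), Klhl4 (-1.61) and Egfem1 (-1.52), and for Kitl (1.49), Bhlhe40 (1.39), Bcl6 (1.36), Zfp385b (1.09) and Pappa2 (1.05). It differed from that in parietal tissue for Ndnf (-1.85) and Egfem1 (-1.20).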

How the results depend on the processing

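The 267 calls became 89 at a minimum of 1.5-fold, 664 with array weights, 44 without WT arrays 2 and 3 and 530 with the meningeal covariate, and 122 to 358 on leaving out 1 array. Higher genes numbered 47, 334, 31 and 254 under these settings and 75 to 163, and lower genes 42, 330, 13 and 276 and 45 to 195. The 83 contrasts with frontal tissue became 32 with the arrays compared alone, 530 with array weights, 51 with the replicate block, 12 with the Y-linked covariate, 16 without WT arrays 2 and 3, 146 without KO parietal array 2 and 205 with the meningeal covariate, and 31 to 187 on leaving out 1 array. The 2 contrasts with parietal tissue became 4 with the arrays compared alone, 17 with array weights, 1 with the replicate block and 0 in limma without WT arrays 2 and 3 or without KO parietal array 2 (532 and 635 at an unadjusted p under 0.05), and 0 to 6 on leaving out 1 array. The causes were not tested. Subtracting array medians gave 120 higher and 118 lower. The replicate block gave 210 occipital calls; same-numbered KO and WT occipital arrays deviated together in 1 of 4 cases (correlations -0.01 to 0.15), so the numbers were not taken as pairs of genotypes. Occipital arrays deviated with same-numbered frontal arrays in 3 of 4 cases in WT and 2 of 4 in KO, and with parietal arrays in 4 of 4 and 0 of 4; a random block over number within genotype gave 84 and 2 contrasts. Of the 51 named genes called, 29 lost their call without WT arrays 2 and 3, and none changed sign under the settings run.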

Other observations

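Proteasome subunits were looked at after the fall of Psmd14 was seen. Of the 38 measured genes of this family other than Psmd14, 34 were higher in KO occipital tissue, as were 10796 of all 19938 genes. The median of the 38 was 0.16 against 0.01 over all genes. Of the 38, 2 were called in limma, Psmb3 (0.48, adjusted p = 0.0373) and Psmd1 (0.26, adjusted p = 0.0482). Psmb3 kept its call without KO array 2 or WT array 1 but not without any of the other 6 arrays, and Psmd1 in no such fit. In frontal tissue, where 4.7% of all genes rose, 30 of the 38 did, with a median of 0.55. In parietal tissue, where 1.06% rose, 6 did, with a median of 0.19.

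Ptprz1, Acsbg1, Gldc and Gfra1 were singled out after their values were seen and stand for no list. Ptprz1, a receptor phosphatase of glia, was 11.56, 11.62, 11.61 and 11.59 in KO and 11.27, 11.13, 10.97 and 11.11 in WT (0.48, adjusted p = 0.00115). Acsbg1, an acyl-CoA synthetase, rose by 0.73 (adjusted p = 0.00654) and Gldc, a glycine-cleaving enzyme, by 0.53 (adjusted p = 0.00784). Ptprz1, Acsbg1 and Gldc kept their call whichever occipital array was left out. Gfra1, a receptor for glial cell line-derived factors, rose by 0.94 with WT array 1 level with the lowest KO arrays.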
